A study of Homo sapiens with 5 samples.

Results

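The genes described here encode the enzymes that write and erase methyl groups on histone lysines. They were taken from the deposited expression table by name: every gene beginning with KDM, KMT, MLL, NSD, WHSC1, EHMT, EZH, SUV39H, SUV420H, SETD or SMYD, apart from KDM3A, the SETDB genes and the MLLT factors. This gave 44 of the 10626 genes in the table, of which 29 are methyltransferase genes and 15 are demethylase genes. The name of a family does not make every product a histone enzyme, and main substrates that lie elsewhere are given for some members only. Counts of methyltransferase and demethylase genes follow the names.

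RNA was measured in HAP1, a near-haploid human cell line derived from a chronic myeloid leukaemia line, in which a single edit removes the only copy of a gene. The tested cells were METAP1 knockout cells (2 libraries), made with CRISPR/Cas9 by an insertion of 179 bp in exon 4 of METAP1, and the controls were the unedited parental wild type cells (3 libraries). METAP1 is a methionine aminopeptidase, which removes the first methionine from new proteins. Both kinds of cell were bought from a supplier and grown in the same serum-supplemented medium, and RNA of high integrity was depleted of ribosomal RNA and sequenced as single reads of 75 bases. The knockout is represented by 1 edited line, so its genotype and the particular line cannot be told apart. The sample titles call the libraries biological replicates, but the labels do not say how the replicate cultures were kept separate. The p-values therefore measure the spread between these libraries, which may be technical.

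Methylation of histone lysines marks chromatin states. H3K4 methylation accompanies promoters and enhancers, H3K36 methylation lies over transcribed gene bodies, H3K27 and H3K9 trimethylation accompany Polycomb silencing and heterochromatin, and H4K20 methylation accompanies chromatin compaction and the cell cycle. Nearly all of the writers carry a SET domain, and the erasers are either flavin-dependent amine oxidases of the LSD group or JmjC proteins, which use oxygen, iron and 2-oxoglutarate. Many of the enzymes act only inside complexes, whose other subunits are given beside them below.

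The libraries held between 12570051 and 16519292 counted reads. Wild type replicates 1 and 2 stood farthest apart, with a chi-square per degree of freedom over genes of 34.9, against 10.1 between the knockout libraries, and members whose call changes when either is left out are described as such. METAP1 itself had 611 and 748 normalized counts in the knockout libraries, against 1868, 1932 and 1944 in the wild type libraries, with a log2 fold change of -1.49 (SE 0.115, adjusted p = 9.33e-05). The mean knockout level was 0.355 of the wild type level, and both libraries labelled knockout lay below all wild type libraries. METAP1D, the mitochondrial relative that the labels also mention, had a log2 fold change of 0.05 (adjusted p = 0.810). HAP1 has a haematopoietic origin but adheres and has lost most blood-cell expression; of 15 haematopoietic marker genes listed for this work, 1 was measured here, KIT, with 387 and 364 normalized counts in knockout cells, against 258, 255 and 253 in wild type cells (log2 fold change 0.56, adjusted p = 0.0103). The other 14 are not analysed here, so the cell identity could not be checked further. Unless another scale is named, values are normalized counts (reads scaled to a common effective library size), fold changes are log2 of knockout over wild type, and adjusted p-values (Benjamini-Hochberg, over all 10620 genes tested) are those of edgeR's quasi-likelihood F-test, with a call made under 0.05.

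All 44 genes passed the filter on low counts and were tested. In the knockout, 12 were called, 8 of them higher and 4 lower, that is 27.3% of the group, of which 18.2% were higher and 9.09% lower. Over all tested genes 29.7% were called, 14.9% higher and 14.8% lower, so the share called among these enzymes was near that of the table as a whole. Counts called in the families and partner lists below are to be read beside these shares, and no family or list was tested. The genes called higher were KDM6B, KDM7A, KDM5B, SETD7, SUV420H1, WHSC1L1, KDM6A and KDM3B, and those called lower were EZH2, SETD6, SUV39H1 and KDM1A. Demethylases made up 5 of the 8 called higher (5 of 15 demethylase genes, with 1 lower), and methyltransferases the other 3 (3 of 29, with 3 lower). The median log2 fold change was 0.24 over the demethylases, 0.05 over the methyltransferases, 0.06 over all 44 and 0.01 over all tested genes. Both knockout libraries lay above all wild type libraries in 14 members (31.8%, against 30.1% of tested genes), and below them in 7 (15.9%, against 29.2%).

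**Figure D1:**
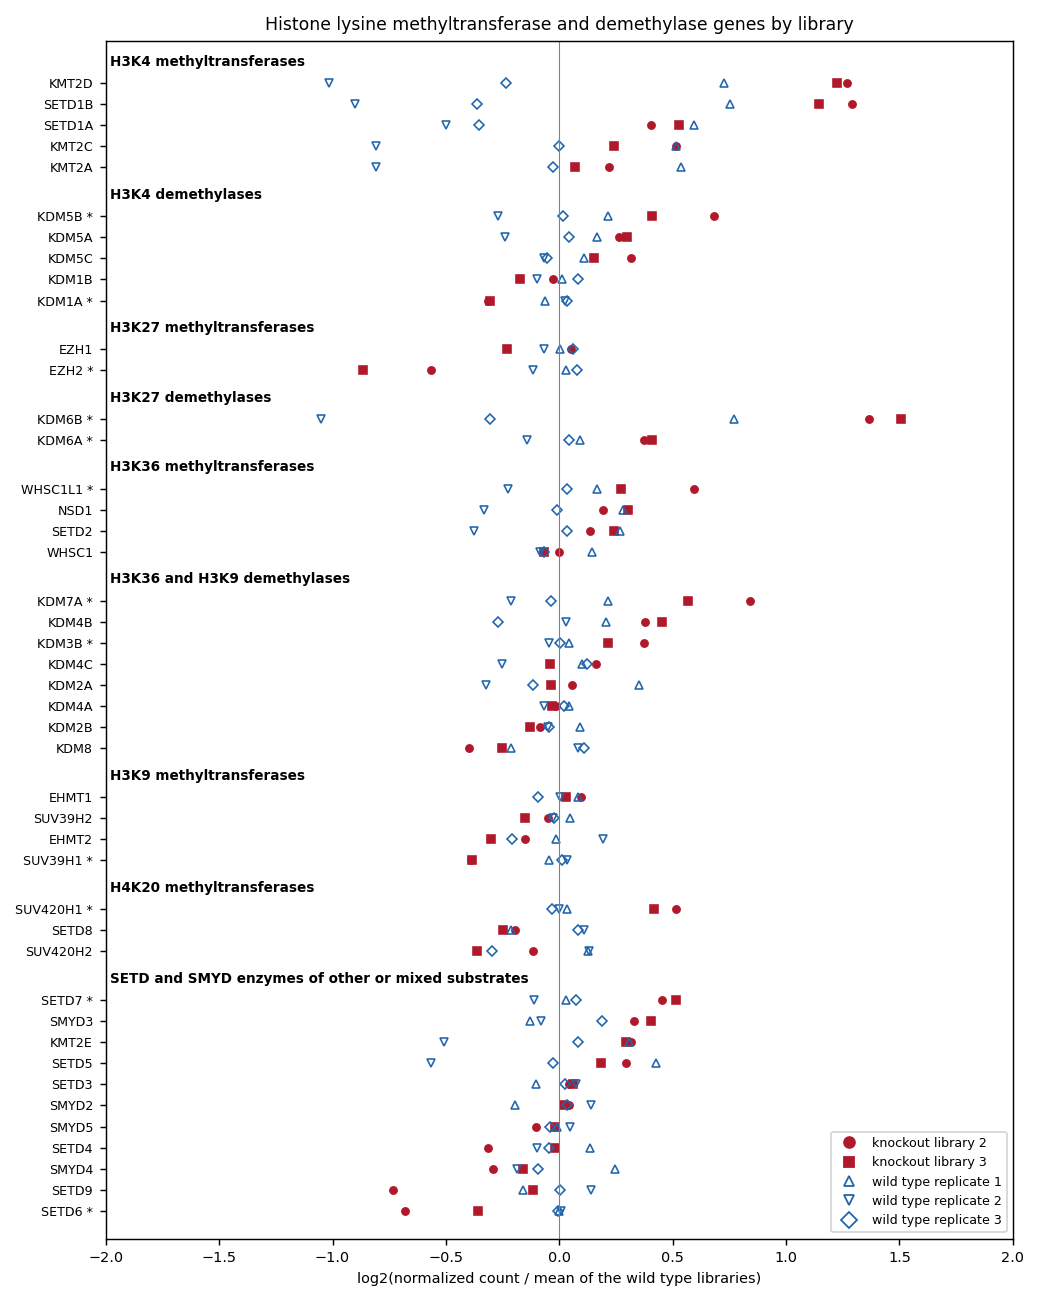
Each library's level of each of the 44 genes, as log2 of its normalized count over the mean of the 3 wild type libraries, with genes grouped by the lysine they act on; filled red marks are the 2 METAP1 knockout libraries, open blue marks the 3 wild type libraries, and an asterisk marks a called gene. EZH2, SETD6, SUV39H1 and KDM1A sit left of every wild type library, and KMT2D, SETD1B and KDM6B show the widest spread among wild type libraries.

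At H3K27 a writer gene and the eraser genes were called in opposite directions. EZH2, the catalytic subunit of Polycomb repressive complex 2 in dividing cells, fell in the knockout, and the H3K27 demethylase genes KDM6A and KDM6B rose. The sequences before their start sites are shown so that these 3 promoters can be compared. They are from RefSeq (GRCh38.p14), 250 bases upstream of a listed start, 5′ to 3′ on the gene's strand. Capitals mark CCAAT or its reverse complement ATTGG, and GGGCGG or its reverse complement CCGCCC (a GC box); overlapping matches run together. EZH2 and KDM6B have 2 listed starts each, all shown; gene counts do not say which start was used.
EZH2 first start, chr7:148884292-148884541, minus strand: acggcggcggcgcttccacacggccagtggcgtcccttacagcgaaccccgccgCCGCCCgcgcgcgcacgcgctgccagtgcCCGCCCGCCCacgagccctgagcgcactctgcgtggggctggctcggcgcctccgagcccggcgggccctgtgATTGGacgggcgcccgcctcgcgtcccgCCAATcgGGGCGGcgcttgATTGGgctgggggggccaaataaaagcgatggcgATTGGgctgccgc
EZH2 second start, chr7:148883486-148883735, minus strand: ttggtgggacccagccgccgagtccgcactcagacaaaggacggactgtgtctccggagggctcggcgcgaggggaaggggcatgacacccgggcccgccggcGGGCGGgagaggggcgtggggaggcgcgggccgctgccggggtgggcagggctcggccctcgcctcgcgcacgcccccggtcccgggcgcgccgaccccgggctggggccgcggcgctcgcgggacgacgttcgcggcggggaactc
KDM6A, chrX:44872938-44873187, plus strand: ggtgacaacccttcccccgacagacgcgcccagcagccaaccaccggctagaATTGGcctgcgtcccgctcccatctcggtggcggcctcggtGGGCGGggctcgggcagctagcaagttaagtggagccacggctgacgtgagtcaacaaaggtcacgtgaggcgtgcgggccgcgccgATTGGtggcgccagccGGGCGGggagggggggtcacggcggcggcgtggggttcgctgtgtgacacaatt
KDM6B first start, chr17:7833967-7834216, plus strand: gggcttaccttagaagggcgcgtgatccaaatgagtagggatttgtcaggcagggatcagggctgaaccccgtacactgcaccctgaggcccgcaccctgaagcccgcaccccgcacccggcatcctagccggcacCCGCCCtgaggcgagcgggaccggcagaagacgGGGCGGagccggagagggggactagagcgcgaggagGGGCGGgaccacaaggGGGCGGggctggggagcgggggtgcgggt
KDM6B second start, chr17:7839667-7839916, plus strand: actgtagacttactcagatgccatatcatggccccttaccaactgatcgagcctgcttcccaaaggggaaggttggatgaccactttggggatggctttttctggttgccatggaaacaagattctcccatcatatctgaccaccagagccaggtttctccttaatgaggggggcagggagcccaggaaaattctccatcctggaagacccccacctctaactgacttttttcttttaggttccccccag

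The first EZH2 window held 4 CCAAT matches and 4 GC boxes, the second EZH2 window 0 and 1, the KDM6A window 2 and 2, the first KDM6B window 0 and 4, and the second KDM6B window 0 and 0. Of the 44 genes, 42 were matched to the RefSeq table, with 60 starts. CCAAT or its reverse was present before 19 of these starts (31.7%), against 32.0% of all 35116 starts in the table. A GC box was present before 49 of them (81.7%), against 42.6% of all starts. The comparison starts were not restricted to genes tested here, whereas every member passed the count filter. The 2 sets of starts are therefore unlike, and no difference between them can be credited to these enzymes. These are matches of letters, with the words chosen after the expression values had been seen, and neither a match nor its absence shows binding.

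EZH2 (chromosome 7, 148807383 to 148884321 in GRCh38) had 1134 and 920.4 normalized counts in the knockout libraries, against 1711, 1548 and 1772 in the wild type libraries. The groups did not overlap, and the lowest wild type library exceeded the highest knockout library. The means were 1027 ± 151 in knockout cells and 1677 ± 116 in wild type cells (SD, n = 2 and 3), a log2 fold change of -0.71 (SE 0.121, adjusted p = 0.00378). EZH2 was called under all 14 alternative settings, at log2 fold changes between -0.87 and -0.56, and it was the one member that stayed called when any single library was left out. Its paralogue EZH1, the catalytic subunit more typical of non-dividing cells, had 584 and 480.3 normalized counts in knockout cells, against 565, 538 and 589 in wild type cells. One knockout library lay below and the other inside the wild type range, and the fold change of -0.08 (SE 0.127, adjusted p = 0.649) did not pass the test. Per kilobase of gene length, EZH2 stood at 3.19 times EZH1 in knockout cells and 4.91 times EZH1 in wild type cells.

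The other subunits of Polycomb repressive complex 2 were not called in 1 direction: of 12 measured of 15 listed, 1 rose and 3 fell, with a median log2 fold change of 0.03. Among all tested genes 14.9% rose and 14.8% fell. JARID2, a JmjC-family subunit without demethylase activity that helps place the complex, rose, with 1422 and 1239.9 normalized counts in knockout cells, against 737, 627 and 645 in wild type cells. Its fold change of 0.99 (SE 0.118, adjusted p = 0.000769) was the largest in the list. PHF19, a Polycomb-like accessory subunit that reads H3K36 methylation, fell, with 559 and 578 in knockout cells, against 903, 964 and 892 in wild type cells, a fold change of -0.69 (SE 0.105, adjusted p = 0.00227). The core subunit EED, which binds H3K27me3 and stimulates the enzyme, fell by 0.39 on the log2 scale (SE 0.123, adjusted p = 0.0433), and the histone-binding subunit RBBP7 fell by 0.33 (SE 0.0976, adjusted p = 0.0337). JARID2 and PHF19 stayed called under every alternative setting, whereas EED and RBBP7 lost the call when either knockout library or wild type replicate 3 was left out, RBBP7 also without wild type replicate 2, and EED also with the column numbers as a block. SUZ12, the remaining core subunit, had 1926 and 1729 normalized counts in knockout cells, against 1992, 1901 and 2173 in wild type cells, with overlapping groups and no call.

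KDM6A, also called UTX, is an X-linked H3K27 demethylase and a subunit of the KMT2C and KMT2D complexes. It had 1998 and 2042 normalized counts in knockout cells, against 1639, 1396 and 1584 in wild type cells. The groups were separate, with means of 2019.7 ± 31.3 in knockout cells and 1539.8 ± 127 in wild type cells (SD, n = 2 and 3), and the fold change was 0.39 (SE 0.101, adjusted p = 0.0206). The call was lost without knockout library 2, knockout library 3 or wild type replicate 3, at adjusted p-values up to 0.125.

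KDM6B, also called JMJD3, is the inducible H3K27 demethylase of differentiation and inflammation. It had 355 and 391 normalized counts in knockout cells, against 235, 66.6 and 112 in wild type cells. The groups did not overlap, but the wild type libraries differed among themselves by 3.53 times, with replicate 1 highest and replicate 2 lowest. Its fold change of 1.46 was the largest of all 44 members and had the largest error (SE 0.418, adjusted p = 0.0352). Set against each wild type library in turn, the knockout mean was higher by 0.66 on the log2 scale than replicate 1, by 2.49 than replicate 2 and by 1.74 than replicate 3. The call ended with DESeq2 (adjusted p = 0.0784), with the length trend removed (fold change 1.44, adjusted p = 0.0722), and without either knockout library or wild type replicate 2 or 3, at fold changes of 1.11 to 1.52 in these 6 settings. Without wild type replicate 1 it was called, at a fold change of 2.06 (adjusted p = 0.00043). Per kilobase, KDM6A stood at 3.57 times KDM6B in knockout cells and 7.37 times KDM6B in wild type cells. With gene lengths from the GENCODE 29 annotation these were 5.50 and 11.4 times.

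**Figure D2:**
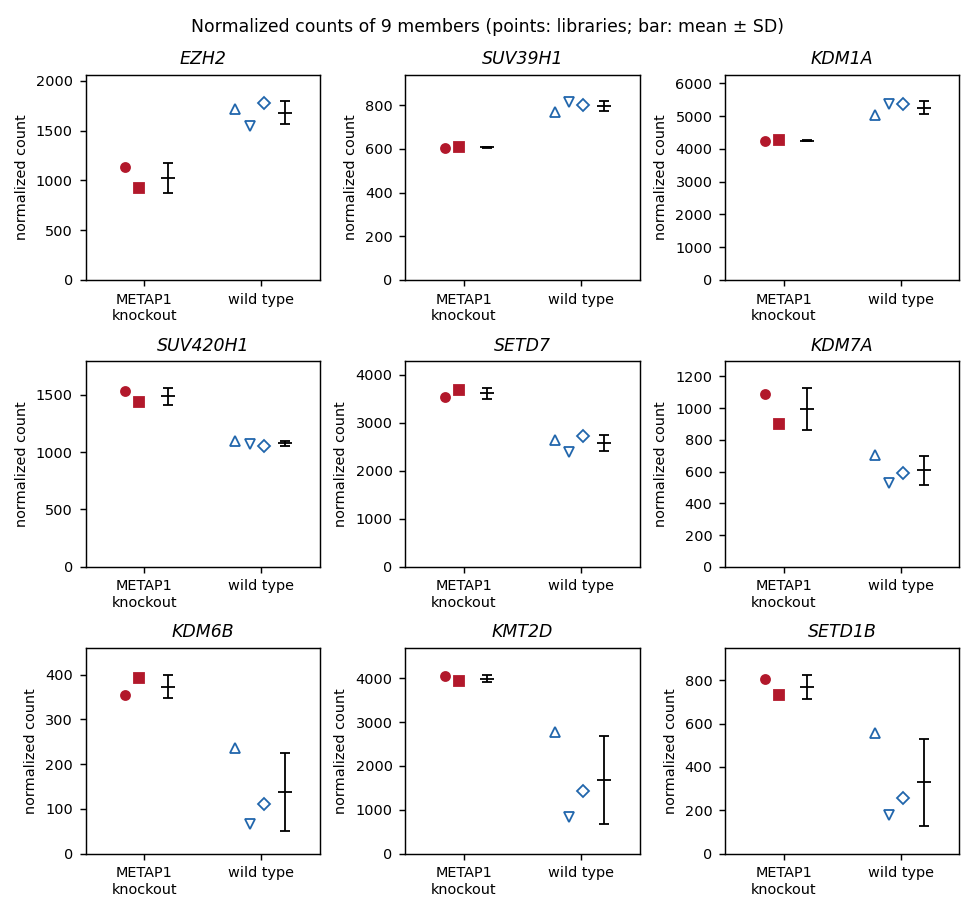
Normalized counts of 9 members in each library, with the METAP1 knockout libraries left of the wild type libraries in each panel and the mean ± SD of each group (n = 2 and 3). The wild type libraries of SUV420H1 and SUV39H1 lie close together, while those of KDM6B, KMT2D and SETD1B differ by more than 3 times within the group.

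The H3K9 methyltransferase genes had 1 call among 4, and it was lower in the knockout. SUV39H1, an X-linked heterochromatin enzyme that deposits H3K9me3, had 607 and 609 normalized counts in knockout cells, against 769.6, 814 and 803 in wild type cells. Both knockout libraries lay below all wild type libraries, and the fold change was -0.39 (SE 0.103, adjusted p = 0.0233). Its paralogue SUV39H2, the H3K9 methyltransferase with the highest level per kilobase, had 1167 and 1085 in knockout cells, against 1249, 1185 and 1187 in wild type cells, a fold change of -0.10 (SE 0.0955, adjusted p = 0.454). The SUV39H1 level per kilobase was 0.683 of that of SUV39H2 in knockout cells and 0.834 of it in wild type cells (0.571 and 0.698 with GENCODE 29 lengths). EHMT1 and EHMT2, the G9a-like pair that deposits H3K9 monomethyl and dimethyl marks, had fold changes of 0.06 (SE 0.0963) and -0.22 (SE 0.130), neither of them called. The SUV39H1 call was lost without knockout library 2, knockout library 3 or wild type replicate 3.

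Among proteins that bind methylated H3K9 or H3K27, 0 of 12 measured (of 15 listed) rose and 3 fell by edgeR, with a median of -0.03. The shares over all tested genes were 14.9% higher and 14.8% lower. DESeq2 and limma-voom also called 0 higher and 3 lower, and 0 were higher at an unadjusted p under 0.05. With the length trend removed, ZNF644 was also called lower (-0.33, adjusted p = 0.0187). CBX1, which is the heterochromatin protein HP1 beta, had 1365 and 1399 normalized counts in knockout cells, against 1680.1, 1940.0 and 1871 in wild type cells, a fold change of -0.41 (SE 0.0998, adjusted p = 0.0175). CBX3, which is HP1 gamma, fell by 0.40 (SE 0.123, adjusted p = 0.0394), and the Polycomb chromodomain protein CBX6 fell by 0.42 (SE 0.120, adjusted p = 0.0320). All 3 calls were lost when knockout library 2, knockout library 3 or wild type replicate 3 was left out, and that of CBX3 also without wild type replicate 2.

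**Figure D3:**
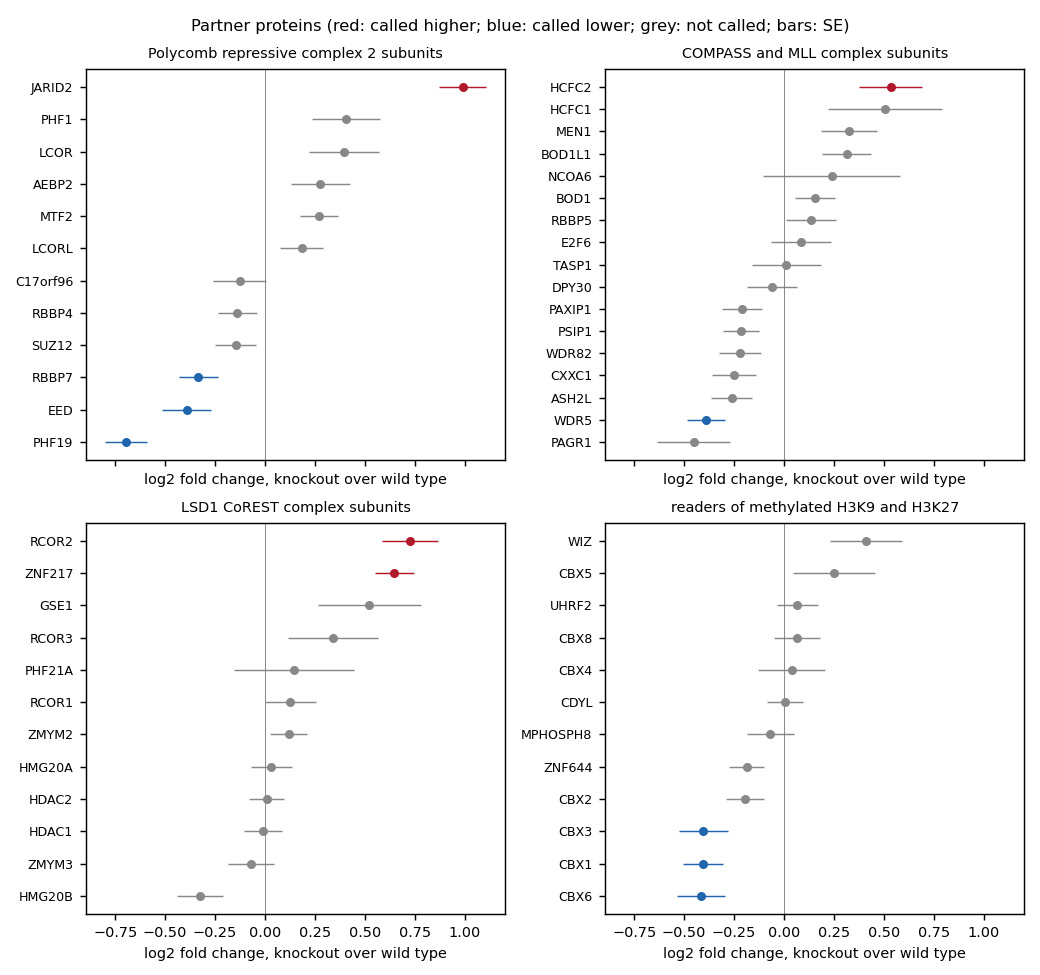
Log2 fold changes, METAP1 knockout over wild type, with standard errors for the measured partner proteins in 4 lists: Polycomb repressive complex 2, COMPASS and MLL complexes, the LSD1 CoREST complex and readers of methylated H3K9 and H3K27. Red points were called higher, blue points lower, and grey points were not called; JARID2 at 0.99 and PHF19 at -0.69 bound the Polycomb panel.

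None of the 5 H3K4 methyltransferase genes was called by edgeR's quasi-likelihood test, although all 5 fitted fold changes were positive, between 0.15 and 1.25, with a median of 0.47. At an unadjusted p under 0.05 there were 2, KMT2D and SETD1B, and DESeq2 called 0 and limma-voom 2. The positive direction did not hold in every setting. KMT2A was -0.14 with the length trend removed and -0.13 without wild type replicate 2. With the length trend removed KMT2C was 0.05, and KMT2D, SETD1B and SETD1A were 0.95, 1.09 and 0.37. KMT2D, a very large enzyme that places H3K4 monomethylation at enhancers, had 4049 and 3929 normalized counts in knockout cells, against 2779.7, 832 and 1428 in wild type cells. The knockout libraries lay above all wild type libraries, but the wild type libraries spread over 3.34 times, and the fold change of 1.25 (SE 0.406, adjusted p = 0.0528) missed the threshold. SETD1B, a catalytic subunit of the SET1 complex that deposits H3K4me3, had 808 and 731 in knockout cells, against 557, 177 and 257 in wild type cells, and its fold change of 1.23 (SE 0.400, adjusted p = 0.0531) also missed it. Both genes were called when wild type replicate 1 was left out (adjusted p = 0.00158 and 0.000259). They were also called with the column numbers as a block, which takes that replicate out of the comparison too. Both were called under limma-voom (0.0387 and 0.0301) and with the GC trend removed, and stayed uncalled under the other 10 settings.

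KMT2A, the founding MLL gene and the highest H3K4 methyltransferase gene per kilobase of the table's length (KMT2C is the highest with GENCODE 29 lengths), had 4219 and 3796 normalized counts in knockout cells, against 5251, 2067 and 3549.7 in wild type cells. Its knockout libraries fell inside the wild type range, and the fold change was 0.15 (SE 0.321, adjusted p = 0.757). KMT2C, the paralogue of KMT2D, had 4776 and 3950.4 in knockout cells, against 4779, 1909 and 3339 in wild type cells, and SETD1A, the paralogue of SETD1B, had 504 and 549 in knockout cells, against 575, 269 and 298 in wild type cells. In both genes the knockout libraries lay below wild type replicate 1 and above the other 2 wild type libraries. Neither was called with all libraries, but SETD1A was called without wild type replicate 1, at 0.88 (adjusted p = 0.00128), against 0.47 (SE 0.303, adjusted p = 0.269) with it. The level of KMT2C per kilobase was 1.06 times that of KMT2D in knockout cells and 1.93 times that of KMT2D in wild type cells.

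Of the shared COMPASS and MLL subunits, 17 of 18 listed were measured, 1 rose and 1 fell, with a median of 0.01. The shares over all tested genes were 14.9% higher and 14.8% lower. With the length trend removed, ASH2L, PSIP1 and PAXIP1 were also called lower (adjusted p = 0.0272, 0.0340 and 0.0189). WDR5, the scaffold that holds the catalytic module together, had 1062 and 1095 normalized counts in knockout cells, against 1394, 1485 and 1361 in wild type cells, a fold change of -0.39 (SE 0.0951, adjusted p = 0.0168). HCFC2, a relative of the host cell factor found in some MLL complexes, rose by 0.53 (SE 0.158, adjusted p = 0.0353). Both calls were lost without knockout library 2, knockout library 3 or wild type replicate 3, and that of HCFC2 also with the column numbers as a block.

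The H3K4 demethylase genes included 1 that rose and 1 that fell. KDM1A, which encodes LSD1 and had the highest level per kilobase of the family, had 4233 and 4259 normalized counts in knockout cells, against 5045, 5361 and 5384 in wild type cells. The groups did not overlap and the means were 4246 ± 18.4 in knockout cells and 5263 ± 189 in wild type cells (SD, n = 2 and 3), a fold change of -0.31 (SE 0.0871, adjusted p = 0.0291). Its paralogue KDM1B had 602 and 544 in knockout cells, against 618, 572 and 650.1 in wild type cells, with overlapping groups and a fold change of -0.10 (SE 0.117). Per kilobase KDM1A stood at 3.94 times KDM1B in knockout cells and 4.56 times KDM1B in wild type cells. With GENCODE 29 lengths these were 7.62 and 8.82 times.

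KDM5B, a JmjC enzyme that removes H3K4me3, rose, with 3588 and 2965 normalized counts in knockout cells, against 2594, 1854 and 2260.0 in wild type cells. The fold change was 0.55 (SE 0.151, adjusted p = 0.0276), with separate groups. Its relatives KDM5A and KDM5C had both knockout libraries above all wild type libraries as well. KDM5A had 3424 and 3499.7 in knockout cells, against 3201, 2413 and 2934 in wild type cells, and KDM5C had 5286 and 4721 in knockout cells, against 4582, 4055 and 4092 in wild type cells. Neither fold change, 0.28 (SE 0.124, adjusted p = 0.119) for KDM5A and 0.24 (SE 0.1, adjusted p = 0.105) for KDM5C, passed the test. Without wild type replicate 1 both did, at 0.36 (adjusted p = 0.0237) for KDM5A and 0.28 (adjusted p = 0.0266) for KDM5C. The level of KDM5B per kilobase was 0.708 of that of KDM5C in knockout cells and 0.570 of it in wild type cells (0.221 and 0.178 with GENCODE 29 lengths). The KDM1A and KDM5B calls were both lost without knockout library 2, knockout library 3 or wild type replicate 3.

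In the LSD1 CoREST complex, all 12 listed subunits were measured, 2 rose and 0 fell by edgeR, as by DESeq2 and limma-voom, with a median of 0.12. The shares over all tested genes were 14.9% higher and 14.8% lower. At an unadjusted p under 0.05, 1 was lower, HMG20B. It was called lower with the length trend removed (-0.33, adjusted p = 0.0423). RCOR2, a CoREST-family scaffold of LSD1, had 579 and 460.2 normalized counts in knockout cells, against 334, 319.5 and 288 in wild type cells, a fold change of 0.73 (SE 0.142, adjusted p = 0.00708). ZNF217, a zinc-finger protein found with CoREST, had 2704 and 2472 in knockout cells, against 1675, 1556 and 1723 in wild type cells, a fold change of 0.65 (SE 0.0957, adjusted p = 0.00201). The ZNF217 call held under every alternative setting, and the RCOR2 call was lost without knockout library 2. The main scaffold RCOR1 and the deacetylase subunits HDAC1 and HDAC2 were not called.

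Among the H3K36 methyltransferase genes 1 of 4 was called. WHSC1L1, now named NSD3, had 4440.3 and 3554 normalized counts in knockout cells, against 3305, 2517 and 3015 in wild type cells. The groups did not overlap, the fold change was 0.44 (SE 0.141, adjusted p = 0.0462), and the call ended with the length trend removed (0.10, adjusted p = 0.452) and without either knockout library or wild type replicate 2 or 3. WHSC1, now named NSD2, which deposits H3K36me2 and had the highest level per kilobase of the family by the table's length, had 6484 and 6183 in knockout cells, against 7160.0, 6106 and 6184 in wild type cells, a fold change of -0.03 (SE 0.102). NSD1, of the same NSD family, had 4984 and 5373 in knockout cells, against 5292, 3458 and 4329 in wild type cells, a fold change of 0.25 (SE 0.165) that was not called, and without wild type replicate 1 it was called at 0.40 (adjusted p = 0.0219). SETD2, the enzyme of H3K36me3, had a fold change of 0.19 (SE 0.173). WHSC1 was called lower with the length trend removed (-0.34, adjusted p = 0.0207). The level of WHSC1 per kilobase was 1.77 times that of WHSC1L1 in knockout cells and 2.46 times it in wild type cells (1.22 and 1.70 with GENCODE 29 lengths).

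The 8 JmjC genes for H3K36 and H3K9 demethylases included 2 that rose and 0 that fell by edgeR, with 3 higher and 0 lower at an unadjusted p under 0.05. By edgeR, 14.9% of all tested genes rose and 14.8% fell. KDM7A, which removes H3K9me2 and H3K27me2, had 1087 and 900.3 normalized counts in knockout cells, against 705, 525 and 593 in wild type cells. The groups were separate, and the fold change was 0.71 (SE 0.148, adjusted p = 0.00897), a call lost only without knockout library 2 (adjusted p = 0.104). KDM3B, an H3K9 demethylase and the member of this family with the highest level per kilobase, had 3725 and 3345 in knockout cells, against 2968, 2787 and 2882 in wild type cells. Its fold change of 0.30 (SE 0.0929, adjusted p = 0.0433) lost its call under 6 of the 14 alternative settings: with the length or the GC trend removed, and without either knockout library or wild type replicate 2 or 3. KDM4B, an H3K9me3 demethylase, had 872 and 918 in knockout cells, against 773, 684 and 556 in wild type cells, with separate groups and an uncalled fold change of 0.42 (SE 0.144, adjusted p = 0.0594). KDM4B was called under DESeq2 (adjusted p = 0.0471), with the GC trend removed and without wild type replicate 1. It was also called with the column numbers as a block, which takes that replicate out of the comparison too. The other 5, KDM2A, KDM2B, KDM4A, KDM4C and KDM8, had fold changes between -0.33 and 0.06, none called. KDM2B was called lower with the length trend removed (-0.36, adjusted p = 0.0186).

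In the H4K20 family the paralogues SUV420H1 and SUV420H2, now KMT5B and KMT5C, differed in their fitted direction. SUV420H1, which adds further methyl groups to monomethylated H4K20, had 1536 and 1435 normalized counts in knockout cells, against 1101, 1073 and 1052 in wild type cells. The wild type libraries lay within 1.05 times of each other and the knockout libraries were well above them, a fold change of 0.47 (SE 0.0923, adjusted p = 0.00742) that lost its call only without knockout library 2 (adjusted p = 0.0763). SUV420H2 had 381 and 321 in knockout cells, against 449, 451 and 336 in wild type cells, with overlapping groups and a fold change of -0.23 (SE 0.167, adjusted p = 0.316). Per kilobase SUV420H1 stood at 1.19 times SUV420H2 in knockout cells and 0.734 of SUV420H2 in wild type cells, but with GENCODE 29 lengths SUV420H1 stood above SUV420H2 in both, at 2.34 times in knockout cells and 1.44 times in wild type cells. SETD8, now KMT5A, the H4K20 monomethyltransferase of the cell cycle and the highest of the family per kilobase, had 1063 and 1024 in knockout cells, against 1050.2, 1312 and 1291 in wild type cells, a fold change of -0.22 (SE 0.121, adjusted p = 0.193), and without wild type replicate 1 it was called at -0.33 (adjusted p = 0.0198).

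The remaining 11 SETD and SMYD genes, and KMT2E among them, encode enzymes with other or mixed substrates, or proteins with a SET domain and no known histone activity. SETD7, which methylates H3K4 in vitro and many non-histone proteins, rose, with 3530.0 and 3685 normalized counts in knockout cells, against 2632, 2394 and 2721 in wild type cells. The fold change was 0.48 (SE 0.0950, adjusted p = 0.00722), and it was 0.16 and uncalled with the length trend removed, and uncalled without either knockout library. SETD6, which methylates the RELA subunit of NF-kB, fell, with 312 and 389 in knockout cells, against 499, 501 and 497 in wild type cells. The wild type libraries hardly differed, the knockout libraries lay below them, and the fold change was -0.51 (SE 0.134, adjusted p = 0.0224); the call was lost without knockout library 2 or wild type replicate 3.

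SMYD2, which methylates p53 among other proteins and was the highest of these genes per kilobase in wild type cells by the table's length (SETD5 with GENCODE 29 lengths), had 684 and 674 normalized counts in knockout cells, against 580.5, 731 and 681 in wild type cells, a fold change of 0.03 (SE 0.126, adjusted p = 0.870). SETD3, the actin histidine methyltransferase, had a fold change of 0.05 (SE 0.0982). SMYD3, a cytoplasmic lysine methyltransferase, had 523 and 551 in knockout cells, against 382, 394 and 475 in wild type cells, with separate groups and a fold change of 0.37 (SE 0.134, adjusted p = 0.0705) that missed the threshold. SETD4, SETD9, SMYD4 and SMYD5 had fold changes between -0.39 and -0.06, and KMT2E and SETD5 had 0.31 (SE 0.208) and 0.24 (SE 0.244), none of them called. Without wild type replicate 1, SETD5 was called at 0.50 (adjusted p = 0.0454).

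Other JmjC proteins, among them hydroxylases of proteins and RNA, were measured for 11 of 16 listed, of which 4 rose and 1 fell, with a median of 0.29. Among all tested genes 14.9% rose and 14.8% fell. With the length trend removed, JMJD8 was also called lower (adjusted p = 0.0457). JARID2 is counted in this list too. HIF1AN, the asparagine hydroxylase of hypoxia-inducible factor, rose by 0.95 (SE 0.142, adjusted p = 0.00219), with 2350.3 and 2293 normalized counts in knockout cells, against 1446, 1019 and 1137 in wild type cells. JMJD1C, a relative of KDM3B, rose by 1.03 (SE 0.175, adjusted p = 0.00505). MINA, a ribosomal histidine hydroxylase now named RIOX2, fell by 0.58 (SE 0.107, adjusted p = 0.00551). Of 13 measured lysine methyltransferase genes outside the name rule (26 listed), 1 rose and 3 fell, with a median of 0.06. With the length trend removed, SETMAR was no longer called (adjusted p = 0.0519). METTL21B, a lysine methyltransferase of an elongation factor, rose by 0.72 (SE 0.195, adjusted p = 0.0251). MECOM, which carries a PR domain, fell by 0.62 (SE 0.131, adjusted p = 0.00982), SETMAR, a SET domain fused to a transposase, fell by 0.55 (SE 0.134, adjusted p = 0.0173), and METTL21A, a methyltransferase of Hsp70 chaperones, fell by 0.38 (SE 0.117, adjusted p = 0.0395). The HIF1AN call held under every alternative setting, and each of the other calls in these 2 lists was lost without at least 1 knockout library, except JARID2.

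Over the whole table the fitted fold change followed gene length, and most of these genes are long. The median length of the 44 genes was 6757 bases, against 3944 bases over all tested genes, and when the table was cut into 10 length bins of equal size, 28 of them fell in the longest 3 bins. Over all tested genes the median fold change was -0.15 in bin 1, the shortest, 0.12 in bin 9 and 0.21 in bin 10, the longest. A trend on length was also present between unedited libraries. The median log2 ratio of wild type replicate 1 over replicate 2 was -0.18 in bin 1, 0.16 in bin 9 and 0.32 in bin 10. The 12 members in bin 9 had a median of 0.30, with 3 called higher and 0 lower, where 22.0% of all genes in the bin were higher and 8.10% lower. The 13 members in bin 10 had a median of 0.25, with 3 called higher and 0 lower, where 24.2% of all genes in the bin were higher and 5.65% lower. The 3 members in bin 8 had a median of -0.22, against 0.09 over all genes there, with 1 called higher and 1 lower, where 17.9% and 11.4% of its genes were. The 16 members in the shorter bins included KDM6B at 1.46 in bin 5 and EZH2 at -0.71 in bin 6. The members called higher had a median length of 7886 bases and those called lower a median of 3437 bases.

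With the length trend removed from the fit, 4 members were called higher and 6 lower, with a median of -0.02 over the 44. The 4 higher were SUV420H1, KDM7A, KDM5B and KDM6A, and the 6 lower were EZH2, KDM1A, SUV39H1, SETD6, KDM2B at -0.36 (adjusted p = 0.0186) and WHSC1 at -0.34 (adjusted p = 0.0207). All 4 lower calls therefore stayed, 4 of the 8 higher calls were lost and 2 lower calls were added. Of the lost calls, SETD7 was 0.16, WHSC1L1 0.10 and KDM3B 0.18 with the trend removed, while KDM6B was 1.44, close to its 1.46 before, with a larger error (SE 0.482). The part of transcript length in the lost calls was not tested beyond this. The table's gene length was compared with the merged exons of each gene in GENCODE 29: the annotation was longer by a median factor of 1.24, by more than 1.5 in 15 members, and by up to 3.43 for KDM5B. Levels per kilobase of KDM6B (1.88), KDM1B (1.93), SUV420H2 (2.06), KMT2A (2.16), SMYD2 (2.53) and KDM5B would be lower by those factors with the annotation's lengths. Of the 9 family leaders named in wild type cells, those of H3K4 methyltransferases and of the SETD and SMYD genes changed, and in knockout cells NSD1 also replaced WHSC1. The order of levels between genes thus rests on the length used, while a gene's own fold change in the main fit does not. The length bins and the fold changes with the length trend removed rest on the table's length. They were not repeated with GENCODE 29 lengths.

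**Figure D4:**
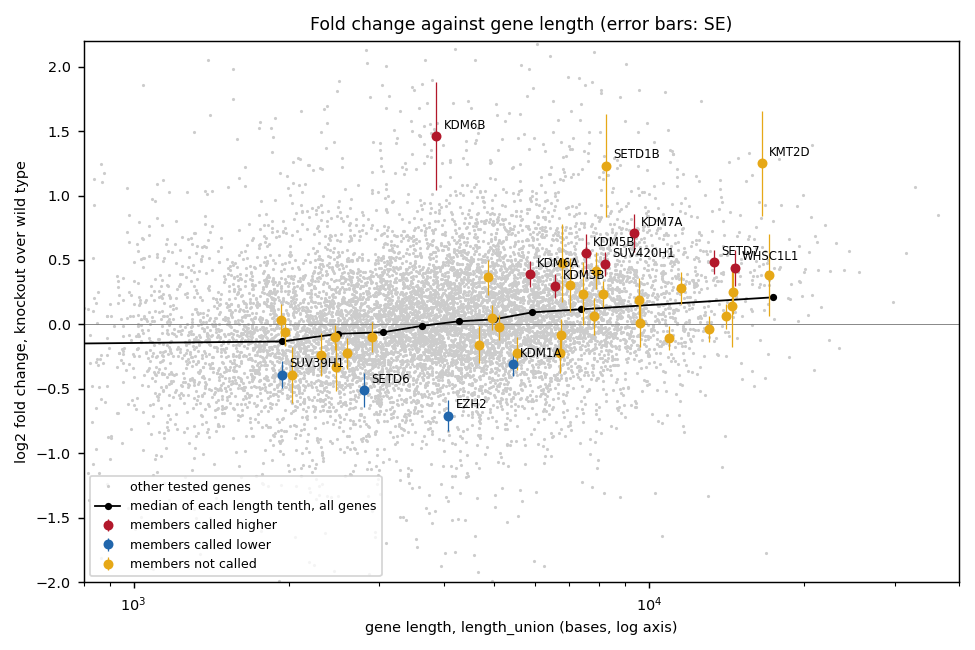
Log2 fold change, METAP1 knockout over wild type, against gene length in bases on a log axis, with grey points for other tested genes, a black line for the median of each of 10 length bins, and coloured points with standard errors for members called higher, called lower or not called. The line runs from below 0 in short genes to 0.21 in the longest bin, and genes beyond the axes are not drawn.

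The wild type libraries differed widely in a subset of these genes. The highest wild type library was at least 1.5 times the lowest in 11 members (25.0%), against 10.2% of tested genes, and at least 2 times in 6 members (13.6%), against 2.18% of tested genes. Long genes showed this more often: a spread of at least 1.5 times was found in 4 of the 12 members in length bin 9 (33.3%), against 13.5% of all genes there, and in 6 of the 13 in bin 10 (46.2%), against 25.8% of all genes there. The 11 were KDM6B, KMT2D, SETD1B, KMT2A, KMT2C, SETD1A, SETD5, KMT2E, KDM2A, SETD2 and NSD1, with a median length of 9583 bases, and all 5 H3K4 methyltransferase genes were among them. Wild type replicate 1 was highest and replicate 2 lowest in all 11, as in 71.7% of all genes with that spread. The knockout libraries differed by at most 1.21 times in the same genes, and their mean lay above wild type replicate 1 in 3 of the 11.

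Because of this spread, the comparison depended on which wild type library was used. Over the 44 members, the knockout mean stood at a median log2 ratio of -0.06 to wild type replicate 1 (16 members higher). It was 0.31 to replicate 2 (27 higher) and 0.14 to replicate 3 (26 higher). Over all tested genes the 3 medians were 0.00, 0.01 and 0.01. The median of replicate 1 over replicate 2 was 0.16 in the members and -0.01 over all genes. Over all genes of length bin 9 it was 0.16, and over those of bin 10 it was 0.32. These bins hold 12 and 13 of the members. The medians over all tested genes are thus not matched to the members' lengths. Without replicate 1, 16 members were called higher and 5 lower, and without replicate 2, 5 were called higher and 4 lower. The authors' deposited table lists 8 members higher and 4 lower at an adjusted p under 0.05; KDM4B is called there (adjusted p = 0.0471) and KDM6B is not (adjusted p = 0.0741).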

How the data were processed

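5 libraries of HAP1 RNA were compared, METAP1 knockout against wild type. Per the labels' protocols the libraries were stranded, total RNA depleted of ribosomal RNA; STAR 2.4.0i, HTSeq and DESeq2, with GRCh37 (hg19), are listed in the submitters' processing notes, and the use of strand in counting is not given here, so reads of overlapping antisense genes cannot be told apart. The deposited table holds a raw read count per gene and library; 5 RPKM columns were not used. Log2 fold changes and adjusted p-values deposited by the authors were used only for the members' calls stated as such. The gene length used for levels per kilobase and for the length trend is the one deposited by the authors. The column numbers of the knockout libraries are 2 and 3, and its titles number 1 and 2, so a knockout library is named by its column.

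Counts were fitted with edgeR 4.0.16 in R 4.3.3 (TMM scaling, default expression filter, robust quasi-likelihood F-test, Benjamini-Hochberg adjustment over 10620 genes, 6 genes removed); limma 3.58.1 and DESeq2 1.42.0 served as alternatives, and Python 3.11.15 for summaries. The standard error is the size of the log2 fold change divided by the root of F. The common biological coefficient of variation was 11.7% with 3 residual degrees of freedom. Within groups the chi-square per degree of freedom between libraries was 10.1 to 34.9, so no library was a repeat of another. The fit was tested on simulated data of 10620 genes, in which 67, 67 and 66 genes were changed by 0.5, 1 and 2 on the log2 scale. It recovered 28.4% of them at 0.5, 95.5% at 1 and 100% at 2. Of the calls in the simulation, 8.59% fell on unchanged genes. A change near 0.5 can thus go uncalled. Far fewer genes were changed in the simulation than the 3150 called in the data. All simulated libraries shared a common profile apart from those changes, with no trend on length and no shift between wild type replicates. The recovered shares may therefore not hold for these data.

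Alternatives were median-of-ratios scaling, library sizes without TMM, all genes kept, a minimum mean of 50 counts, omission of each library in turn, the trend of fold change on length (lowess, span 0.3) removed, a block on the column numbers, DESeq2 and limma-voom. Removal of the trend on GC content was chosen after seeing the data. Named genes were chosen by rule: every called member, members of a paralogue pair with a called partner, the member with the highest level per kilobase in each family and up to 4 called genes per partner list; other members named here, such as SMYD3 and KDM4B, were chosen after their values were seen. The members and lists were chosen with earlier results of these data known, so their counts carry no independent weight. For 18 genes the name was resolved through the identifier, and all 44 members were matched to GENCODE 29 on GRCh38. Protein sequences were not analysed here. Precision depends on the read counts and on the spread between libraries, and their parts were not separated.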

Additional observations from a re-analysis of the deposited data

How the results depend on the processing

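Between 1179 and 4591 genes of the table were called when 1 library was left out (3150 with all 5), and of the members 1 to 21 were called, 0 to 16 higher and 1 to 5 lower, with a median of 0.028 to 0.16; partner genes called ranged from 7 to 37 (19 with all 5). The low counts came without knockout library 2 (1179 genes, 0 members higher and 1 lower), knockout library 3 (1322; 2 and 2) and wild type replicate 3 (1665; 3 and 1), the high count without wild type replicate 1. With the length trend removed 4 members were called higher, and 24 partner genes were called. With the column numbers as a replicate block, 24 members were called, 19 of them higher, with a median of 0.18, and 35 partner genes. Only wild type replicate 1 has the number 1, so the block takes it out of the knockout comparison. The block is thus not independent of leaving that replicate out (21 members, 16 higher, median 0.16, 37 partner genes). Deviations of same-numbered libraries correlated at 0.0318 and -0.00196 over only 2 shared numbers, so no pairing is shown. EZH2 kept its call in all settings run. Other scalings, filters, DESeq2, limma-voom and the GC trend left each of these counts within 1.5 times.

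The sign turned in 23 single values of uncalled members. With 1 library left out, log2 fold changes ran from -0.13 to 0.50 for KMT2A, -0.011 to 0.089 for SETD3, -0.071 to 0.11 for SMYD2, -0.13 to 0.21 for KDM2A, -0.075 to 0.029 for WHSC1, -0.23 to 0.051 for EZH1 and -0.049 to 0.16 for KDM4C. With the length trend removed, NSD1 was -0.072, SETD2 -0.0042, KMT2A -0.14, EHMT1 -0.28, KDM4C -0.088, SETD3 -0.016, KDM2A -0.18 and SMYD5 0.036. KDM2A was -0.0028 with the GC trend removed. With the block, SMYD2 was -0.055, KDM4A 0.00041 and WHSC1 0.043. The cause was not tested. The comparison rests on 2 libraries against 3, and the parts of read depth and of the spread between libraries in its precision were not separated.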
